A study of Mus musculus with 9 samples.

Results

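The Egr, Ier and Dusp early response genes are 10 genes of mouse 4T1 mammary carcinoma cells, a cultured line: Egr1, Egr2, Egr3, Ier2, Ier3, Ier5, Nr4a1, Dusp1, Dusp5 and Dusp6. They were taken by gene name from 52306 named genes, their transcripts' values were summed per library, and all 10 reached a mean of 1 FPKM (sequenced fragments per unit of transcript length and of library size) over the 9 libraries, as did 10453 genes in all. RNA was taken at day 2 from 4T1 cells given MK1775, an inhibitor of the kinase Wee1 (3 libraries), from 4T1 cells labelled as Wee1 siRNA knockdown (3 libraries), and from 4T1 cells labelled NC, the negative control (3 libraries). All 3 groups were grown in DMEM with fetal bovine serum. The MK1775 dose, the vehicle, the siRNA sequences and the transfection of the NC cells are not stated by the labels, so vehicle and transfection cannot be told apart from the treatments. It is also not stated if the numbers 1 to 3 under the siRNA label mean replicate cultures or separate siRNAs. No source says that libraries sharing a label were grown separately, and p-values then measure only the spread between these libraries, which may be technical.

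Immediate-early genes are transcribed within minutes of a growth factor or a stress, without new protein synthesis, through factors such as Srf, Elk1 and Creb1 that are already in the nucleus. The Egr zinc finger proteins and the nuclear receptor Nr4a1 are transcription factors of this first wave, and the Ier proteins are small stress- and growth-induced proteins. The Dusp phosphatases remove the activating phosphates of MAP kinases and so close a feedback loop on the Ras-ERK pathway and on its stress-activated relatives. In mammary epithelial and carcinoma cells these genes are standard readouts of receptor tyrosine kinase and MAP kinase activity.

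By their values, the 10 genes did not all change alike within a family. For the Egr genes this rests on Egr3, whose call adds no support, and among the Ier genes the changes were small. Egr1 and Egr2 were 7.14-fold and 23.3-fold higher in MK1775 libraries than in NC libraries, Ier2 was 1.43-fold higher, and Dusp6 was 2.17-fold lower. Egr3, Ier3 and Dusp5 were lower by smaller amounts. Egr2 reached the mean of 1 FPKM through its treated libraries alone, and Egr3 through its NC libraries alone. Libraries labelled Wee1 siRNA gave overlapping values with MK1775 libraries for Egr1, Egr2 and Dusp6, while Ier2 was 1.27-fold higher than in NC there, and no gene of the 10 passed the test between MK1775 and the siRNA label. Dusp1 was 2.72-fold higher in MK1775 libraries once an unnamed transcript at its locus was counted, and without that transcript it did not pass.

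Against NC, 3 of the 10 genes were called higher, 4 lower and 3 not called in MK1775 libraries (limma, Benjamini-Hochberg adjusted p under 0.05). The background was high: 41% of all genes tested were called, 17.9% higher and 23.1% lower, so a call by itself says little about these genes. For the siRNA label, 3 were higher, 3 lower and 4 not called, where 42.8% of all genes were called, 19.6% higher and 23.2% lower. The values of 8 genes did not overlap between MK1775 and NC, and those of 7 did not overlap between the siRNA label and NC, against 54% and 52.2% of all genes. By the size of the log2 difference, Egr1 ranked 45 and Egr2 ranked 121 from the top of all differences in MK1775 libraries, and Dusp6 ranked 122 from the bottom. Egr2 was tested only because of its treated libraries and Egr3 only because of its NC libraries. Their calls and the rank of Egr2 therefore add no support. The median log2 difference of the 10 genes was 0.05 in MK1775 and 0.09 in siRNA-labelled libraries, beside -0.04 and -0.01 over all genes tested. Both comparisons use the same 3 NC libraries, so their likeness is partly built in.

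**Figure D1:**
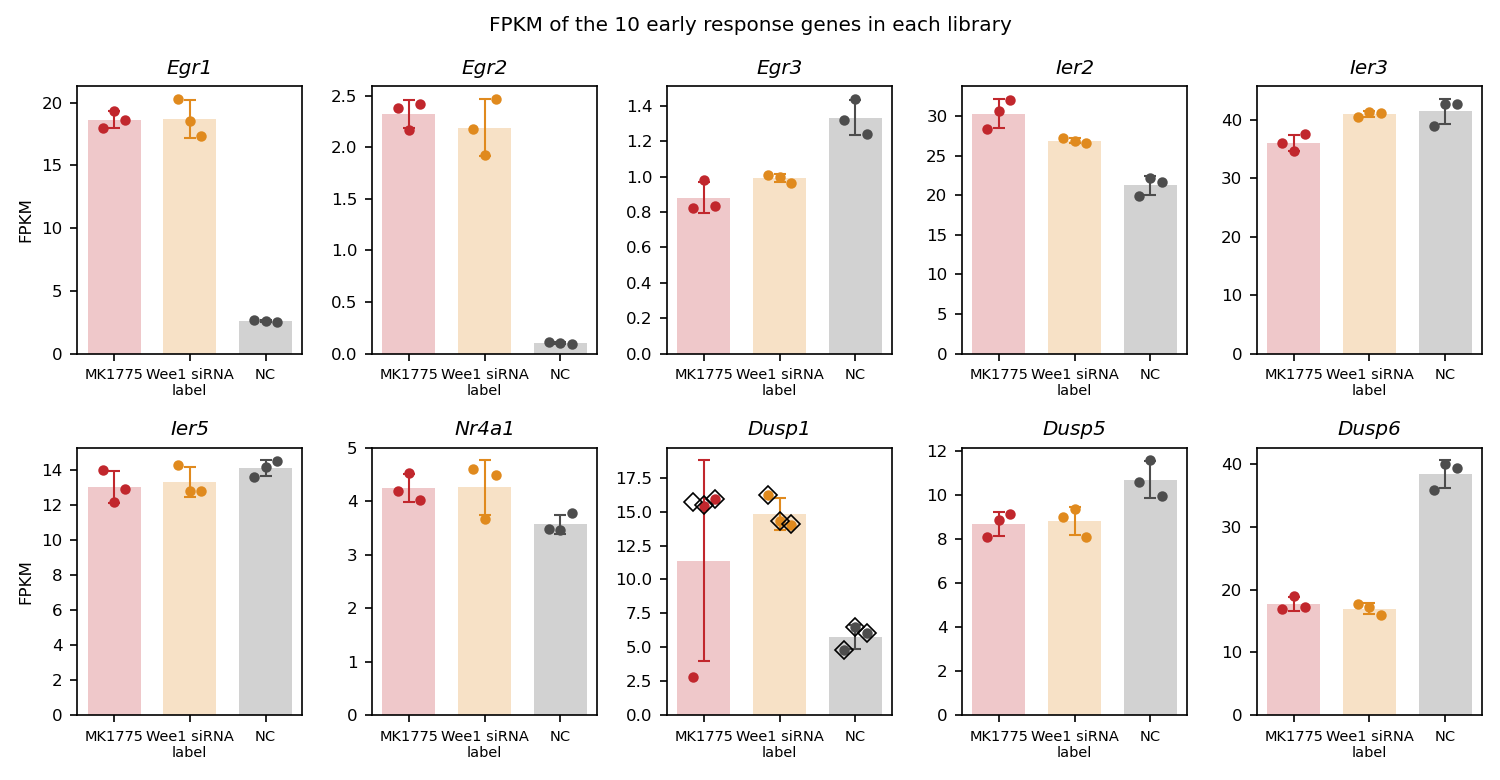
FPKM (linear axis from 0, own scale per gene) of the 10 genes in MK1775, Wee1 siRNA label and NC libraries; points are libraries, bars group means, whiskers 1 SD, n = 3. For Dusp1, open diamonds add the unnamed transcript, which lifts MK1775 replicate 1 to 15.7 FPKM, level with the other treated libraries.

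The libraries as a whole bear on how far these values reach. FPKM totals lay between 321551 and 332950 per library and 10017 to 10783 named genes reached 1 FPKM. Reads could not be recovered from the values, so depth is unknown and no counting interval can be given. Wee1 itself was not lowered under the siRNA label: it stood at 13.1, 15.1 and 15.3 FPKM there and at 15, 14.7 and 16.8 FPKM in MK1775 libraries, against 11.5, 10.5 and 11 FPKM in NC libraries. The siRNA group is therefore called by its label throughout. The epithelial markers fitted the labelled cell type, and their sum moved with the groups. All 8 were found, 5 passed the filter, and their summed level was 779 to 792 FPKM in MK1775 and 723 to 725 FPKM in siRNA-labelled libraries, against 434 to 497 FPKM in NC. A single marker averaged 475 and 435 FPKM of this in the treated groups, against 251 FPKM in NC, so the sum says little about the others. Immune markers summed to 5.44 to 7.8 FPKM in MK1775 and 6.78 to 8.64 FPKM under the siRNA label, against 8.72 to 10.1 FPKM in NC. Of the 8 listed, 2 passed the filter, and Adgre1 and Cd3e were among those at 0 in all groups. The highest immune marker mean was 4.2 FPKM in MK1775 and 4.19 FPKM under the siRNA label, against 5.65 FPKM in NC. Fibroblast markers summed to between 2.12 and 3.6 FPKM, with 1 of the 6 passing the filter and Lum at 0. Endothelial markers summed to between 0.338 and 0.513 FPKM. Blood markers summed to 0.713 to 0.848 FPKM in MK1775 and 1.04 to 1.08 FPKM under the siRNA label, against 0.0448 to 0.0951 FPKM in NC, and Itga2b led them with means of 0.762 and 1.06 FPKM in the treated groups, against 0.042 FPKM in NC, with Pf4 among those at 0. The part of these shifts in the results below was not tested. In bulk RNA, fewer cells making a transcript and less of it per cell cannot be told apart.

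Promoters of early response genes are known for binding sites of Srf and Creb1, and 5 are shown because their genes moved in opposite directions or were not called. Each is the 250 bases before the RefSeq transcription start on mouse build GRCm38.p6, which is not the GRCm39 build of the expression files. Of the 10 genes, 7 were searched (Egr2, Ier3, Ier5, Nr4a1, Dusp1, Dusp5 and Dusp6). Egr3 and Ier2 had no usable entry, and the promoter of Egr1 was left out and is not reported here. Capitals mark the CArG box, to which Srf binds, the cyclic AMP response element TGACGTCA and its half-site TGACG, which reads CGTCA where it lies on the other strand. Egr2 is chr10:67537619-67537868 on the plus strand, Dusp5 chr19:53528895-53529144 plus, Dusp1 chr17:26508473-26508722 minus, Nr4a1 chr15:101266596-101266845 plus and Dusp6 chr10:99262981-99263230 plus.
Egr2: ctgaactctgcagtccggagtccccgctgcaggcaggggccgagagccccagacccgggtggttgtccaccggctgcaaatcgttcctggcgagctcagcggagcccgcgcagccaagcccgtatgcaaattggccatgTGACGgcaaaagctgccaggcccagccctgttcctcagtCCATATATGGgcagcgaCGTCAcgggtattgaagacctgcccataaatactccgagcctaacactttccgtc
Dusp5: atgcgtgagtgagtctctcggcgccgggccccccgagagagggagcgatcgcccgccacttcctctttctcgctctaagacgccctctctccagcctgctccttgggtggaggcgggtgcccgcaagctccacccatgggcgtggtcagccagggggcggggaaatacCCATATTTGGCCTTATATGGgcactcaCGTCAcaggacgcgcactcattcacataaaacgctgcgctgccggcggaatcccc
Dusp1: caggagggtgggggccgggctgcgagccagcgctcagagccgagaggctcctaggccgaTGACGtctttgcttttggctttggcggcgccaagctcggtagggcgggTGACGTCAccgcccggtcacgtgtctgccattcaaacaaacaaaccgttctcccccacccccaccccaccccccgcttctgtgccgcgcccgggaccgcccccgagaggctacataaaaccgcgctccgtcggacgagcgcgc
Nr4a1: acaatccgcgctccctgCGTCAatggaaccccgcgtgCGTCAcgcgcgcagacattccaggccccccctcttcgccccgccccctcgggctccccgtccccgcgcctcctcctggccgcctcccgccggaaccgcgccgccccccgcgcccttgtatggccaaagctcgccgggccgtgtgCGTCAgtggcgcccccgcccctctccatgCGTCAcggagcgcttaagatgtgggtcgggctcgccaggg
Dusp6: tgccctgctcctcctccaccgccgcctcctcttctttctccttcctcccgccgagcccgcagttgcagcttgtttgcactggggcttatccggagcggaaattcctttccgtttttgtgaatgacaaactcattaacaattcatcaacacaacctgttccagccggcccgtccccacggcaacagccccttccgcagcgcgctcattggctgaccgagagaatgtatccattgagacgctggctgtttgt

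Egr2 held 1 CArG box, CCATATATGG, beginning at position -72 from the start, and 2 half-sites. Dusp5 held 2 CArG boxes side by side, CCATATTTGG at -82 and CCTTATATGG at -72, and 1 half-site. Egr2, with the largest fold increase, and Dusp5, which was lower, both carried CArG boxes in this window. Whether these boxes bear on the changes was not tested. Dusp1 held the full TGACGTCA at -143, which also counts as 2 half-sites, and 1 more half-site at -191, and Nr4a1 held 4 half-sites. Dusp6, Ier3 and Ier5 held none of the motifs searched, which were these and the Egr site GCGTGGGCG, the Ets site CCGGAAGT and the AP-1 site TGANTCA, all on both strands. Among 32851 RefSeq promoter windows of the same length, 1.47% held a CArG box, 1.55% TGACGTCA, 17.8% TGACG, 0.536% the Egr site, 2.88% the Ets site and 6.75% the AP-1 site. These are matches of letters in a window and show no binding.

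The Egr family was tested next, for what each member did in 4T1 cells after MK1775 or under the siRNA label. Egr1, the most widely expressed of these zinc finger factors, lies on the plus strand at chr18:34992876-34998037 (GRCm39), and 1 transcript of 2 exons and 4484 bases carried its whole value. It stood at 18, 19.3 and 18.6 FPKM in MK1775 libraries and at 20.3, 18.5 and 17.3 FPKM in siRNA-labelled libraries, against 2.69, 2.61 and 2.53 FPKM in NC libraries. Every treated library was far above every NC library. On the log2(FPKM + 1) scale the difference was 2.44 (SE 0.0667, 95% interval 2.29 to 2.6, adjusted p = 2.02e-07) for MK1775 and 2.45 (2.29 to 2.6, adjusted p = 1.79e-07) for the siRNA label. The difference between MK1775 and the siRNA label was 0 with an interval of -0.16 to 0.15.

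Egr2, a regulator of myelinating glia and hindbrain patterning, lies at chr10:67371305-67378018 on the plus strand, and its main transcript has 2 exons. It rose to 2.38, 2.17 and 2.42 FPKM in MK1775 libraries and 2.18, 1.92 and 2.47 FPKM under the siRNA label, against 0.113, 0.0975 and 0.0889 FPKM in NC. Its NC level was close to absent, and it passed the filter through the treated libraries alone, so that it had to differ once tested. The ratio of means was 23.3-fold for MK1775 and 21.9-fold for the siRNA label, while the log2(FPKM + 1) differences were only 1.59 (SE 0.0864, adjusted p = 7.43e-06) and 1.53 (SE 0.0864, adjusted p = 8.33e-06), because that scale understates changes of low genes. In all 9 libraries the main transcript, ENSMUST00000048289, held the largest share, from 63.2% to 100% in the treated libraries and 100% in NC.

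Egr3, a factor known from muscle spindle development and lymphocyte tolerance, ran the other way. At chr14:70314652-70320063 (plus strand) it had 0.822, 0.982 and 0.836 FPKM in MK1775 libraries and 1.01, 0.999 and 0.964 FPKM under the siRNA label, against 1.32, 1.44 and 1.24 FPKM in NC. All treated values were below all NC values, at a level near the filter of 1 FPKM. Its means were 0.88 and 0.992 FPKM in MK1775 and siRNA-labelled libraries, against 1.33 FPKM in NC. It thus passed the filter through the NC libraries alone, and its lower calls are tied to that. The log2 difference was -0.31 (SE 0.0771, adjusted p = 0.0128) for MK1775 and -0.23 (SE 0.0771, adjusted p = 0.0447) for the siRNA label. The siRNA-label call was lost in 13 of the 16 alternative settings that gave a value, with differences from -0.39 to -0.19. Egr4, the other gene of the family, was listed at 0 in all libraries except siRNA label replicate 1, with 0.0182 FPKM. Egr1 made up 84.9% to 85.9% of the summed FPKM of Egr1, Egr2 and Egr3 in MK1775 and 83.5% to 86.4% under the siRNA label, against 63% to 65.5% in NC.

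Among the Ier genes of this set the changes were small. Their relative Ier5l, outside the set, averaged 7.38 and 6.8 FPKM in MK1775 and siRNA-labelled libraries, against 16.4 FPKM in NC. Its log2 differences were -1.06 and -1.16 (limma, adjusted p = 0.000249 and 0.000154). Ier2, a small nuclear protein induced by serum, lies at chr8:85387960-85389483 on the minus strand as a single exon. It had 28.3, 30.6 and 32 FPKM in MK1775 libraries and 27.2, 26.8 and 26.6 FPKM under the siRNA label, against 19.9, 22.2 and 21.6 FPKM in NC, with no overlap between treated and NC libraries. The log2 difference was 0.49 (SE 0.0593, adjusted p = 0.000376) for MK1775 and 0.33 (SE 0.0593, adjusted p = 0.0027) for the siRNA label.

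Ier3, a stress-induced protein that acts on cell survival and on ERK dephosphorylation, lies at chr17:36132576-36133815 on the plus strand and had the highest mean of the 10 genes in every group. It had 36, 34.7 and 37.5 FPKM in MK1775 libraries and 40.5, 41.4 and 41.2 FPKM under the siRNA label, against 39, 42.7 and 42.7 FPKM in NC. The MK1775 values lay below all others, and the siRNA-label values lay inside the NC range. The log2 difference was -0.19 (SE 0.0503, adjusted p = 0.0155) for MK1775 and -0.01 (SE 0.0503, adjusted p = 0.848) for the siRNA label. The MK1775 call was lost without MK1775 replicate 2 (-0.17, adjusted p = 0.0586) and without NC replicate 3 (-0.17, adjusted p = 0.059). Ier5, a single-exon gene at chr1:154972107-154975382 (minus strand) whose protein is induced by radiation and heat, was not called in either comparison. Its values were 14, 12.2 and 12.9 FPKM in MK1775 libraries and 14.3, 12.8 and 12.8 FPKM under the siRNA label, against 13.6, 14.2 and 14.5 FPKM in NC, and these ranges overlapped (adjusted p = 0.229 and 0.362).

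Nr4a1, an orphan nuclear receptor also named Nur77, lies at chr15:101152150-101172676 on the plus strand. It had 4.2, 4.53 and 4.02 FPKM in MK1775 libraries and 4.61, 3.68 and 4.5 FPKM under the siRNA label, against 3.48, 3.46 and 3.78 FPKM in NC. The MK1775 values were all above NC, yet neither comparison was called, with a log2 difference of 0.2 (interval 0 to 0.4, adjusted p = 0.106) in each. Its transcripts differed in one library. In siRNA label replicate 3 the transcript from the upstream start, of 8 exons, held 3.7 FPKM or 82.4% of the gene, and the 7-exon transcript ENSMUST00000023779 held 15.5%. In the other 8 libraries the 7-exon transcript held 64.7% to 85%. Without siRNA label replicate 2 the siRNA-label difference was called (0.28, adjusted p = 0.0296).

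**Figure D2:**
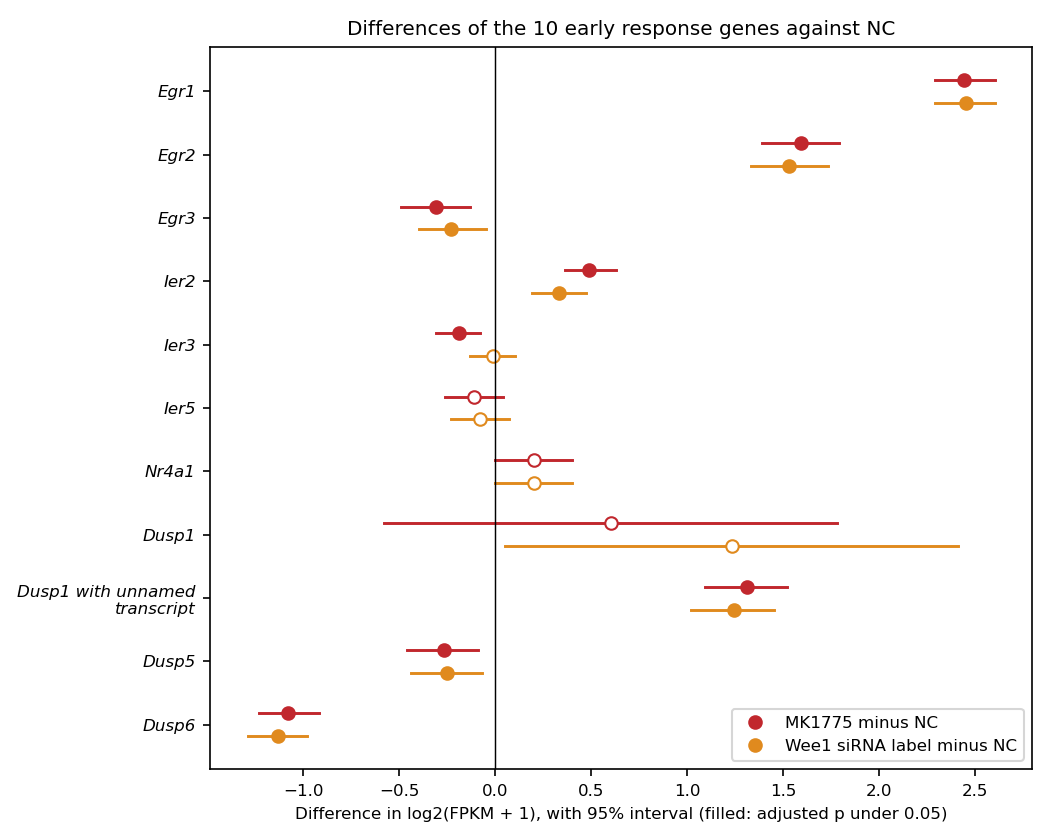
Differences in log2(FPKM + 1) of the 10 genes, MK1775 minus NC above and Wee1 siRNA label minus NC below it for each gene, with 95% intervals from limma; filled points have an adjusted p under 0.05. Egr1 lies at 2.44 and 2.45 and Dusp6 at -1.08 and -1.13, and the wide Dusp1 intervals narrow once its unnamed transcript is added.

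Of the phosphatases, Dusp5 and Dusp6 were lower in both comparisons, and Dusp1 was not called on its named transcripts. Dusp6, a cytoplasmic phosphatase specific for ERK whose own transcription follows ERK activity, lies at chr10:99099093-99103351 on the plus strand. It had 16.9, 19 and 17.3 FPKM in MK1775 libraries and 17.7, 17.3 and 16 FPKM under the siRNA label, against 36, 40 and 39.5 FPKM in NC. Every treated library was well below the lowest NC library, and 1 transcript of 3 exons held 93.6% to 99.3% of the value in all 9 libraries. The log2 difference was -1.08 (SE 0.0664, adjusted p = 1.36e-05) for MK1775 and -1.13 (SE 0.0664, adjusted p = 1.03e-05) for the siRNA label, a level 2.17-fold and 2.27-fold lower than in NC.

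Dusp5, a nuclear phosphatase specific for ERK, lies at chr19:53517540-53530862 on the plus strand with 4 exons. It had 8.1, 8.88 and 9.13 FPKM in MK1775 libraries and 9.02, 9.37 and 8.12 FPKM under the siRNA label, against 10.6, 11.6 and 9.96 FPKM in NC. The treated and NC values did not overlap, but the gap was small next to that of Dusp6. The log2 difference was -0.27 (SE 0.0801, adjusted p = 0.027) for MK1775 and -0.25 (SE 0.0801, adjusted p = 0.0347) for the siRNA label. The MK1775 call was lost in 5 of 18 alternative settings (adjusted p up to 0.0914) and the siRNA-label call in 8 of 18 (up to 0.104).

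Dusp1, a nuclear phosphatase of p38, JNK and ERK, needs its transcripts to be read one by one. Its named transcripts span chr17:26724564-26781102 on the minus strand, and the main one, ENSMUST00000025025, covers chr17:26724564-26727493 with 4 exons. The named transcript that reaches to 26781102, across other genes, held at most 0.00734 FPKM in any library. The named sum was 2.81, 15.4 and 15.9 FPKM in MK1775 libraries and 16.2, 14.3 and 14 FPKM under the siRNA label, against 4.78, 6.51 and 6.04 FPKM in NC. MK1775 replicate 1 lay below NC, whereas every other treated library was above it. In that library an assembled transcript with no gene name, at chr17:26724564-26733740 on the same strand with 5 exons and 2112 bases, held 12.9 FPKM, or 82.1% of all FPKM at the locus. It held 0.0756 and 0 FPKM in the other MK1775 libraries and at most 0.145 FPKM under the siRNA label, and was listed at 0 in all NC libraries. Of the 10 genes, Dusp1 was the 1 with an unnamed transcript at its locus.

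With the named sum, Dusp1 was not called: 0.6 (SE 0.512, adjusted p = 0.397) for MK1775 and 1.23 (SE 0.512, adjusted p = 0.0878) for the siRNA label. The large SE came from MK1775 replicate 1, since without it the differences were 1.31 (adjusted p = 0.000387) and 1.23 (adjusted p = 0.000225), and of the 10 genes 4 were higher and 3 lower for MK1775 (all genes: 34.1% called, 15% higher and 19.2% lower) and 4 higher and 2 lower for the siRNA label (all genes: 40.7% called, 18.6% higher and 22% lower). Adding unnamed transcripts to the genes they lie on gave Dusp1 values of 15.7, 15.5 and 15.9 FPKM in MK1775 and 16.2, 14.3 and 14.1 FPKM under the siRNA label, against the same NC values. All treated libraries then lay far above NC, with a log2 difference of 1.31 (SE 0.0951, adjusted p = 6.91e-06) for MK1775 and 1.24 (SE 0.0951, adjusted p = 9.21e-06) for the siRNA label. Under that rule 4 of the 10 genes were higher and 4 lower in MK1775 libraries, and 4 higher and 3 lower under the siRNA label, beside 54.1% of all genes called for MK1775 (25.3% higher, 28.8% lower) and 56.2% for the siRNA label (28% higher, 28.2% lower). The ratio of Dusp1 to Dusp6 FPKM, unnamed transcript included, was 0.818 to 0.928 in MK1775 libraries and 0.829 to 0.918 under the siRNA label, against 0.133 to 0.163 in NC. The summed FPKM of Dusp1, Dusp5 and Dusp6 was 40.7 to 43.4 in MK1775 and 38.3 to 42.9 under the siRNA label, against 51.3 to 58.2 in NC.

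**Figure D3:**
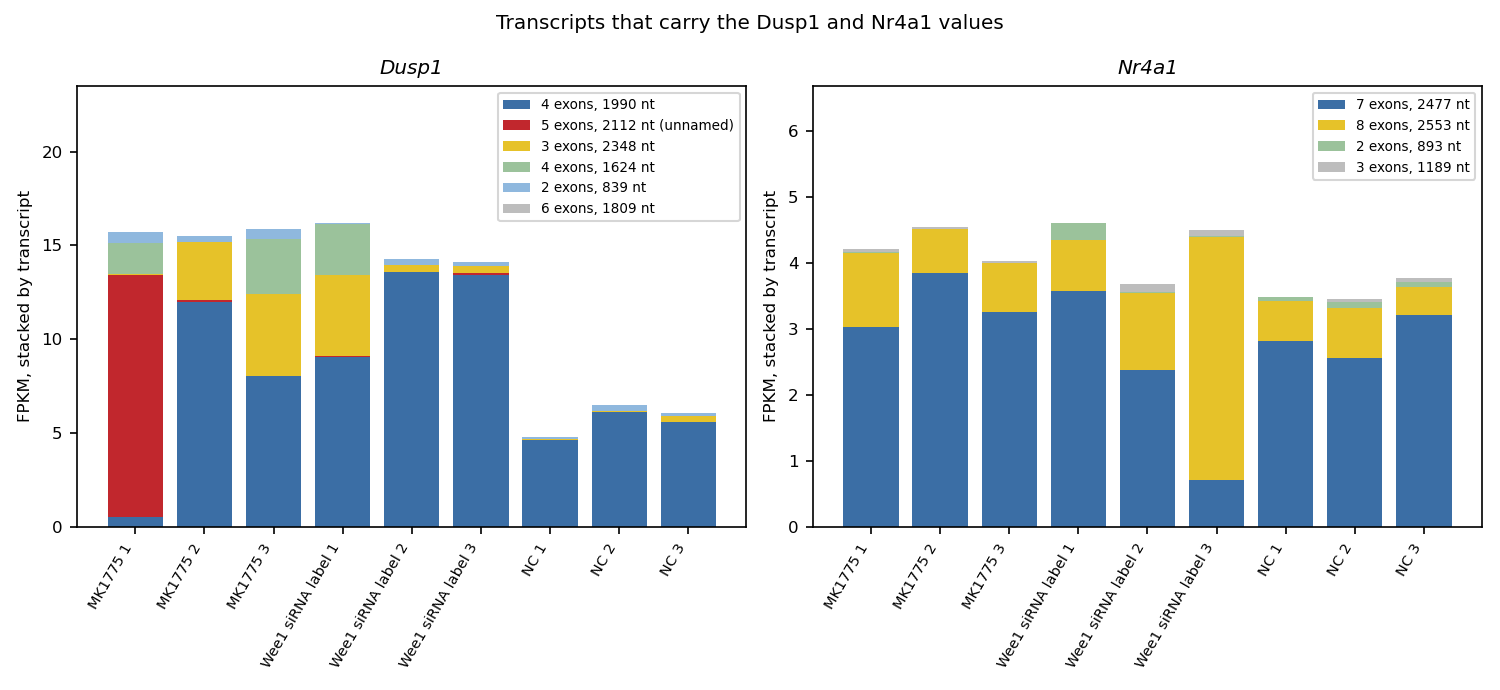
FPKM of Dusp1 (left) and Nr4a1 (right) stacked by transcript in each of the 9 libraries, MK1775, Wee1 siRNA label and NC from left to right. The unnamed 5-exon transcript carries 12.9 FPKM of Dusp1 in MK1775 replicate 1, and the 8-exon transcript carries 82.4% of Nr4a1 in siRNA label replicate 3.

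The levels of the 10 genes, which are per length, were ordered differently in treated and NC libraries. In MK1775 libraries Ier3 was followed by Ier2, then Egr1 and Dusp6, whose ranges overlapped, then Ier5, Dusp1 and Dusp5, whose neighbouring ranges overlapped, then Nr4a1, Egr2 and Egr3. The place of Dusp1 there rests on the 2.81 FPKM of MK1775 replicate 1, and with the unnamed transcript its 15.5 to 15.9 FPKM lay between Dusp6 and Ier5, apart from both. Under the siRNA label the order was Ier3, Ier2, then Egr1, Dusp6, Dusp1 and Ier5 with overlapping neighbours, then Dusp5, Nr4a1, Egr2 and Egr3. In NC libraries Ier3 and Dusp6 overlapped at the top and were followed by Ier2, Ier5, Dusp5, Dusp1, Nr4a1, Egr1, Egr3 and Egr2, each apart from the next. By mean level, Egr1 thus took rank 3 in both treated groups and rank 8 in NC, and Dusp6 took rank 4 in both treated groups and rank 2 in NC. The summed level of all 10 genes overlapped between the groups, at 131 to 151 FPKM in MK1775 and 144 to 153 FPKM under the siRNA label, against 131 to 145 FPKM in NC. These sums hold named transcripts only. The 131 FPKM of MK1775 replicate 1 thus leaves out the 12.9 FPKM of the unnamed Dusp1 transcript.

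Whether MK1775 and the siRNA label differed for these genes was tested directly. No gene of the 10 was called (limma, Benjamini-Hochberg), where 0.00957% of all genes, 1 gene, was. At an unadjusted p under 0.05 there were 2 of the 10 and 616 of all genes. Those 2 were Ier2, with a log2 difference of 0.16 (interval 0.03 to 0.3, unadjusted p = 0.0252 and adjusted p = 0.79 from limma, exact permutation p = 0.1), and Ier3, with -0.18 (interval -0.3 to -0.06, unadjusted p = 0.00711 and adjusted p = 0.644 from limma, exact permutation p = 0.1). Their values did not overlap between MK1775 and the siRNA label, as those of 11.9% of all genes did not. The intervals of Egr1, Egr2, Egr3, Ier5, Nr4a1, Dusp5 and Dusp6 all lay within -0.26 to 0.26, and that of Dusp1 was -1.81 to 0.55, or -0.14 to 0.29 with its unnamed transcript. Exact permutation tests of 3 against 3 libraries cannot go below p = 0.1, the value reached where groups did not overlap.

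The wider early response was described with lists of genes that include none of the 10. All list counts below stand beside 41% of all genes called for MK1775 (17.9% higher, 23.1% lower). For the siRNA label the share was 42.8% (19.6% higher, 23.2% lower). A list count near these shares says little about the list. Of 30 other immediate-early genes, 26 were tested, and 17 were higher and 6 lower in MK1775 libraries (median log2 difference 0.81), with 17 higher and 5 lower under the siRNA label (0.74). Atf3, a stress-induced transcription factor, led them with 35.8 ± 0.454 FPKM in MK1775 and 32.6 ± 3.77 FPKM in siRNA-labelled libraries, against 1.86 ± 0.17 FPKM in NC (SD, n = 3 each; log2 differences 3.68 and 3.55, adjusted p = 1.13e-07 and 1.09e-07). Plk2, a polo-like kinase, averaged 44 and 39.1 FPKM in MK1775 and siRNA-labelled libraries, against 12.4 FPKM in NC. The zinc finger factors Klf10 (30.5 and 31.1 FPKM, against 8.4 FPKM in NC) and Klf6 (47.1 and 49.1 FPKM, against 15.5 FPKM in NC) were higher as well. Adjusted p was at most 1.95e-06 for these 3 genes in both comparisons. Atf3, Plk2, Klf10 and Klf6 were picked from this list by the smallest adjusted p for MK1775, and all were higher. Some others called higher averaged under 1 FPKM in NC, among them Nr4a2 (0.345 FPKM) and Btg2 (0.987 FPKM). Such genes passed the filter through the treated libraries alone. The counts of higher genes and the medians of this list are therefore partly fixed by the filter. The 6 called lower for MK1775 included Ier5l and Srf.

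Genes known as outputs and feedback regulators of ERK were more often lower than higher. Of 16 listed, 15 were tested, and 2 were higher and 7 lower in each comparison, with a median log2 difference of -0.55 for MK1775 and -0.28 for the siRNA label. With unnamed transcripts added all 16 were tested, and the medians were -0.16 and -0.19. Then 4 were higher and 8 lower for MK1775, and 4 higher and 10 lower for the siRNA label. Over all genes that rule called 54.1% for MK1775 (25.3% higher, 28.8% lower) and 56.2% for the siRNA label (28% higher, 28.2% lower). Spry1, an inhibitor of receptor tyrosine kinase signalling, had 2.11, 2.56 and 3.42 FPKM in MK1775 and 3.3, 3.37 and 3.02 FPKM under the siRNA label, against 9.87, 9.2 and 8.81 FPKM in NC (log2 differences -1.49 and -1.28, adjusted p = 6.24e-05 and 0.00012). Its relative Spry4 averaged 3.4 and 3.06 FPKM, against 5.59 FPKM in NC, and the Ets factor Etv1 averaged 3.03 and 3.16 FPKM, against 5.81 FPKM in NC. Epha2, an ephrin receptor, was the exception among the 4 named, at 88.4 and 80.1 FPKM in MK1775 and siRNA-labelled libraries, against 40.9 FPKM in NC.

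Among the other MAP kinase phosphatases some were higher and some lower. All 7 were tested, and 2 were higher and 3 lower in each comparison, with medians of -0.08 for MK1775 and -0.22 for the siRNA label. Dusp9, which acts on ERK, averaged 19.7 and 18.3 FPKM in MK1775 and siRNA-labelled libraries, against 36 FPKM in NC. Dusp4, a nuclear phosphatase of ERK and JNK, averaged 15.4 and 15 FPKM, against 23 FPKM in NC, and Dusp7, which acts on ERK, averaged 7.96 and 7.81 FPKM, against 11.3 FPKM in NC. Dusp16, a phosphatase of JNK and p38, was higher at 10 and 10.3 FPKM, against 4.53 FPKM in NC. All 4 had an adjusted p of at most 0.00278 in both comparisons. The other phosphatase called higher averaged 0.908 FPKM in NC. It passed the filter through its treated libraries alone, so its call adds no support.

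**Figure D4:**
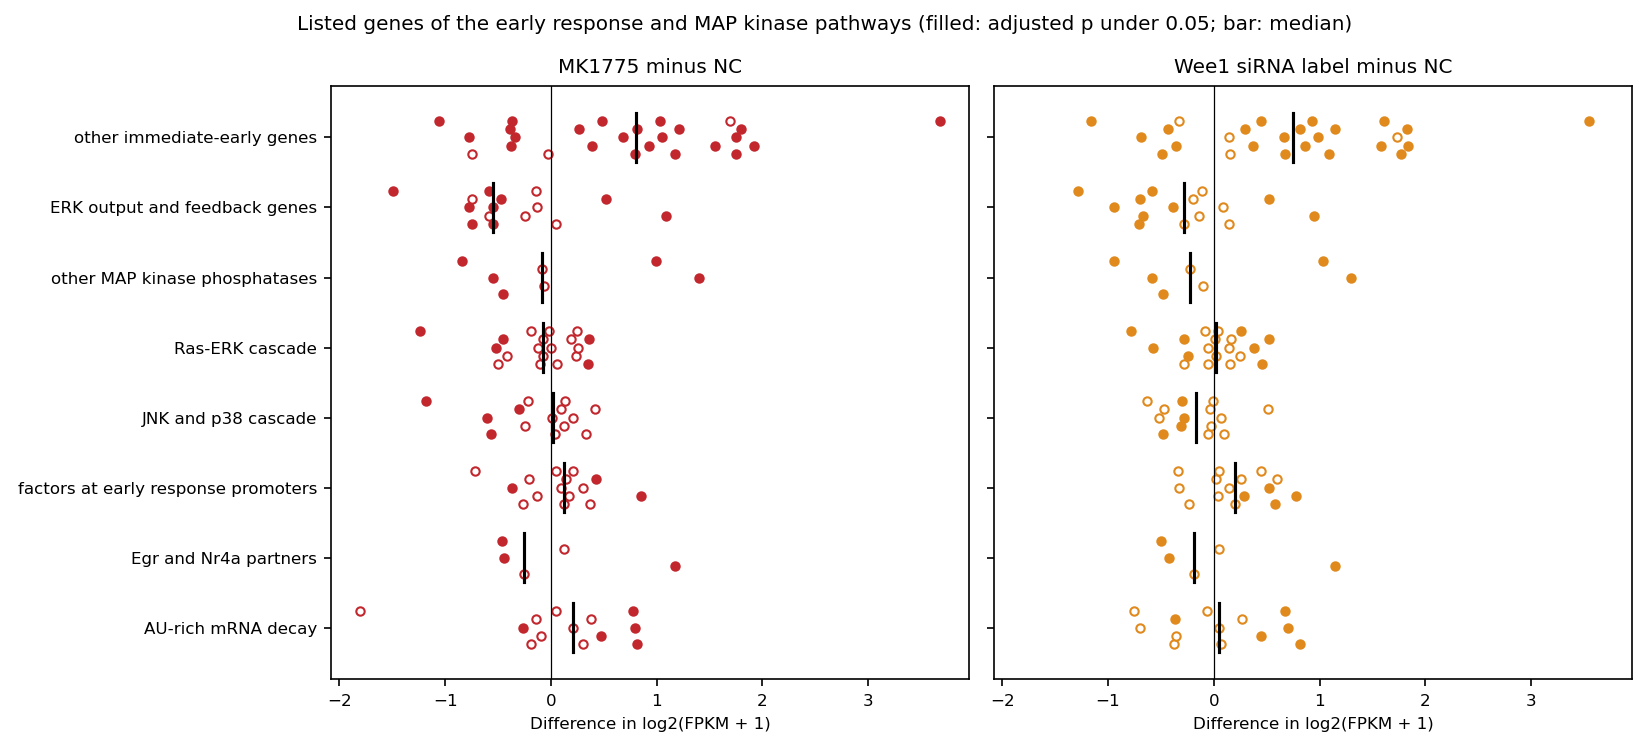
Differences in log2(FPKM + 1) of the tested genes of 8 lists, MK1775 minus NC on the left and Wee1 siRNA label minus NC on the right; each point is a gene, filled where its adjusted p is under 0.05, and bars are medians. The immediate-early list has medians of 0.81 and 0.74 and the ERK output list of -0.55 and -0.28. Some immediate-early genes passed the filter through their treated libraries alone.

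The kinases of these pathways were counted in the same way. Of 19 tested Ras-ERK cascade genes, 2 were higher and 3 lower in MK1775 libraries (median -0.07), and 4 were higher and 4 lower under the siRNA label (0.02). Map2k1, the kinase MEK1, averaged 38 and 38.9 FPKM in MK1775 and siRNA-labelled libraries, against 29.6 FPKM in NC, and Mapk3, the kinase ERK1, averaged 19.1 and 18.4 FPKM, against 27.8 FPKM in NC. The scaffold Ksr1 averaged 2.03 and 2.41 FPKM, against 3.15 FPKM in NC, and the adaptor Shc1 averaged 8.98 and 12 FPKM, against 21.4 FPKM in NC. These 4 were called in both comparisons, with adjusted p of at most 0.0417. Of 14 tested genes of the JNK and p38 cascades, none was higher and 4 were lower in each comparison (medians 0.03 and -0.17). With unnamed transcripts added, 3 were higher and 6 lower in each comparison. Over all genes that rule called 54.1% for MK1775 (25.3% higher, 28.8% lower) and 56.2% for the siRNA label (28% higher, 28.2% lower). The kinases Map3k5 (3.84 and 4.27 FPKM, against 6.35 FPKM in NC), Map2k7 (8.17 and 9.97 FPKM, against 12.6 FPKM in NC) and Mapk14, or p38 alpha (25.8 and 26.1 FPKM, against 31.9 FPKM in NC), were lower in both. Map2k4, a kinase of JNK and p38, had 8.32, 2.2 and 7.48 FPKM in MK1775 libraries and 7.87, 8.31 and 8.74 FPKM under the siRNA label, against 15, 12.9 and 12.3 FPKM in NC, and was called for MK1775 (-1.18, adjusted p = 0.0295) and not for the siRNA label (-0.63, adjusted p = 0.196). Once unnamed transcripts were added its differences were -0.42 and -0.44, called in both (adjusted p = 0.000135 and 9.69e-05).

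Factors that act at early response promoters were tested for 15 of 16 listed genes. In MK1775 libraries 2 were higher and 1 lower (median 0.12), and under the siRNA label 4 were higher and none lower (0.2). With unnamed transcripts added, 4 were higher and 4 lower for MK1775, and 5 higher and 2 lower for the siRNA label. That rule called 54.1% and 56.2% of all genes. Mef2a averaged 16.9 and 16.2 FPKM in MK1775 and siRNA-labelled libraries, against 8.95 FPKM in NC, and the coactivator Crebbp averaged 2.45 and 2.12 FPKM, against 1.55 FPKM in NC. Srf, the factor of the CArG box, averaged 7.7 ± 1.11 FPKM in MK1775 libraries and 7.92 ± 0.933 FPKM under the siRNA label, against 10.3 ± 1.28 FPKM in NC (SD, n = 3 each), and was called for MK1775 (-0.37, adjusted p = 0.0483) and not for the siRNA label (-0.33, adjusted p = 0.0681). With unnamed transcripts added Srf averaged 16.7 FPKM in MK1775 and 15.6 FPKM under the siRNA label, against 21.4 FPKM in NC, and was called in both (-0.34 and -0.43, adjusted p = 0.00548 and 0.00137). Its partner Elk1 had 0.39, 1.09 and 1.42 FPKM in MK1775 and 0.832, 1.6 and 2.27 FPKM under the siRNA label, against 2.5, 1.95 and 2.06 FPKM in NC, and was not called (adjusted p = 0.0545 and 0.326), whereas with unnamed transcripts added over all genes it was called for MK1775 (adjusted p = 0.0331).

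Partners and relatives of Egr and Nr4a proteins were tested for 5 of 7 genes, with 1 higher and 2 lower in each comparison (medians -0.25 and -0.19). Nr4a2, a relative of Nr4a1, averaged 2.01 and 1.98 FPKM in MK1775 and siRNA-labelled libraries, against 0.345 FPKM in NC (log2 differences 1.17 and 1.15, adjusted p = 9.96e-05 and 0.000102). Like Egr2, it passed the filter through the treated libraries alone and so had to differ once tested. Nab2, a corepressor of Egr proteins, averaged 5.27 and 5.44 FPKM, against 7.62 FPKM in NC, and the receptor Rxra, with which Nr4a1 can pair, averaged 6.98 and 6.66 FPKM, against 9.85 FPKM in NC. Rxrb averaged 15.1 and 14.3 FPKM, against 13.8 FPKM in NC, and was not called (adjusted p = 0.079 and 0.429), whereas with unnamed transcripts added over all genes it was called for MK1775 (adjusted p = 0.0498). Genes of the decay of AU-rich transcripts, a class to which many early response transcripts belong, gave 4 higher and 1 lower of 13 in each comparison (medians 0.21 and 0.05). Btg2 (2.47 and 2.5 FPKM, against 0.987 FPKM in NC), Zfp36 (4.69 and 4.16 FPKM, against 2.25 FPKM in NC), Tob1 (11.4 and 10.7 FPKM, against 6.23 FPKM in NC) and Zfp36l1 (11.3 and 11.1 FPKM, against 7.9 FPKM in NC) were the 4 that were higher, and Btg2, averaging under 1 FPKM in NC, also owed its place in the test to its treated values. No gene of any of the 8 lists was called between MK1775 and the siRNA label by limma, and 7 of their 108 tested genes (6.48%) had an unadjusted p under 0.05, beside 5.89% of all genes.

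The genes whose profile over the 9 libraries lay closest to that of Egr1 were sought among 6208 genes averaging 5 FPKM or more, by the root mean square difference of log2(FPKM + 1) values centred on the NC mean. Cdkn1a, the cyclin-dependent kinase inhibitor p21, was nearest at 0.0628, with 29.8 and 27.6 FPKM in MK1775 and siRNA-labelled libraries, against 4.49 FPKM in NC. It was followed by Csn3 and Twsg1 (0.213 each), Ppp1r15a (0.261) and H2-Q7 (0.286). For Dusp6, Ralb was nearest (0.0494), and Lgals3bp (0.0509), Twist1 (0.067) and Sema6b (0.07) were among the 5 nearest. Ralb averaged 10.5 and 10.8 FPKM, against 24.1 FPKM in NC, and Lgals3bp, Twist1 and Sema6b had treated means of 6.48 to 9.94 FPKM, against 15 to 21.5 FPKM in NC.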

How the data were processed

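RNA-seq libraries of total RNA from 9 samples of 4T1 cells were made with an NEBNext Ultra kit, per the labels' protocols. Per the submitters' processing notes, which give no versions, the tools were FastQC, Trim Galore, HISAT2 and StringTie and the genome build was GRCm39. The authors deposited FPKM values for 158719 transcripts, of which 17991 have no gene name; whether counting used strand is not given in the sources used here, so overlapping genes on opposite strands cannot be told apart. No value column was left unmapped to a sample.

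FPKM was summed per gene name and library. The 10453 genes averaging 1 FPKM or more were tested with limma 3.58.1 in R 4.3.3 on log2(FPKM + 1), all 9 libraries in 1 model, two-sided, with Benjamini-Hochberg adjustment over all genes and a threshold of 0.05. The FPKM values gave no whole reads, so depth is unknown and no count model was used. The 10 genes and the lists were chosen with earlier results of these data known. The text names all 10 genes, of each list the 4 with the smallest adjusted p in MK1775 against NC, Wee1, and the 5 genes nearest in profile to Egr1 and to Dusp6. A few genes that this rule or the marker lists would name are not reported here. Genes can stand in 2 lists (Srf, Dusp4, Nr4a2, Btg2 and Zfp36 among those named). Egr4, Ier5l and the transcripts of single libraries were chosen after their values were seen. Promoters came from RefSeq on GRCm38.p6, and the motifs were chosen for this description. The test was also run on simulated data, with independent noise and changes in a small part of the genes. That run does not bear on small differences or on transcripts that switch in single libraries, as at Dusp1.

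Alternatives were another pseudocount, no or a stricter filter, 2 rescalings, the replicate block, only the groups compared, the most abundant transcript, unnamed transcripts added to the gene they lie on, and leaving out each library.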

Additional observations from a re-analysis of the deposited data

Results flagged for a closer look

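The unnamed transcript at Dusp1 held 12.9 FPKM in MK1775 replicate 1 and is listed at 0 in all 3 NC libraries. It was flagged because a table row that carries no gene name, and so enters no named sum, held 82.1% of the FPKM at the locus of one of the 10 genes in that library. Its share was at most 1.02% in the other 8 libraries. Groups of 3 libraries are too small for a test of single outlying libraries.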

How the results depend on the processing

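Egr1, Ier2 and Dusp6 kept their direction and their call against NC in both comparisons under all 18 alternatives. Egr3 kept both for MK1775 in the 16 that gave a value, but it enters the test through its NC libraries, so this adds no support. Egr2 kept both in both comparisons in 17, but it enters the test through its treated libraries, so this adds no support either. No gene of the 10 was called between MK1775 and the siRNA label under any of them. Genes of the 10 called against NC numbered 5 to 8 for MK1775 and 4 to 7 for the siRNA label, beside 7 and 6, while 3068 to 5922 and 3191 to 6147 of all genes were called. Over all genes, 1 gene was called between MK1775 and the siRNA label, with 11 without the filter, 2 with the most abundant transcript, 0 with the replicate block and 0 to 3 with 1 library left out. Taking the most abundant transcript reversed Dusp1 for MK1775 (-0.19), Nr4a1 for the siRNA label (-0.37) and Egr2 between the treated groups (-0.08). Between the treated groups, median-of-ratios scaling reversed Ier5 (0.01) and Dusp5 (0.02), and adding unnamed transcripts reversed Dusp1 (0.07). With 1 library left out, the differences that turned sign ranged from -0.06 to 0.01 for Ier3 under the siRNA label against NC and, between the treated groups, from -0.08 to 0.02 for Ier5, -1 to 0.08 for Dusp1 and -0.07 to 0.03 for Dusp5. The cause was not tested, except that Dusp1 turns on its unnamed transcript. The same replicate numbers did not pair the libraries (0 of 9 same-number pairs correlated over 0.1), and the replicate block left 7, 5 and 0 of the 10 genes called and ended the siRNA-label call of Egr3 (adjusted p = 0.0775). For all genes the replicate block called 3881 and 4079 against NC. The direction split over all genes depended on the filter: without it 2907 were higher and 2168 lower for MK1775 and 3558 and 2249 for the siRNA label, beside 1871 and 2411, and 2048 and 2426. Adding unnamed transcripts raised the list counts most, for MK1775 to 10 called Ras-ERK genes beside 5, 9 JNK and p38 genes beside 4, 8 promoter factors beside 3 and 8 AU-rich decay genes beside 5, and for the siRNA label to 14 ERK output genes beside 9, 9 JNK and p38 genes beside 4 and 7 promoter factors beside 4. Over all genes, 54.1% and 56.2% were called with unnamed transcripts added, beside 41% and 42.8%. The most abundant transcript left 1 promoter factor and 1 Egr and Nr4a partner called in each comparison, and 2 JNK and p38 genes for MK1775. The siRNA-label count of 8 Ras-ERK genes was 4 or 5 without the filter and without siRNA label replicate 1, 2 or 3 or NC replicate 2 or 3, that of JNK and p38 genes was 2 without NC replicate 3, and 3 AU-rich decay genes were called with a minimum of 5 FPKM. Depth is unknown, which limits what can be said of Egr2 and Egr3 near or under 1 FPKM.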
